A study of Homo sapiens with 12 samples.

Results

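The RNA levels of 9 genes of platelet-derived growth factor (PDGF) and fibroblast growth factor (FGF) signalling were followed in 12 RNA-seq libraries of 2 triple-negative breast cancer cell lines. The genes were chosen by name, with earlier results of these data known. Each has 1 entry among the 32152 genes of the deposited table, of which 17665 are listed as protein coding. The 9 genes are 3 receptor genes (PDGFRA, PDGFRB and FGFR1), 3 PDGF ligand genes (PDGFA, PDGFB and PDGFC) and 3 FGF ligand genes (FGF1, FGF2 and FGF5). All 9 entered the tests because each reached an RPKM of 0.5 in at least 2 libraries, although PDGFRA and FGF2 did so through Hs-578T and PDGFB through MDA-MB-231. RPKM counts the reads on a gene relative to the gene's length and to the library's total reads.

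MDA-MB-231 and Hs-578T are established lines, and each gave 2 libraries of parental controls, 2 of ERK5-ko cells and 2 of MEK5DD cells. ERK5 is a mitogen-activated protein kinase encoded by MAPK7, and MEK5, encoded by MAP2K5, is the kinase that activates it. In ERK5-ko cells the ERK5 gene was targeted with CRISPR/Cas9, and MEK5DD denotes MEK5 made constitutively active. The MDA-MB-231 ERK5-ko cells came from 1 surviving single-cell clone, which Hs-578T clone was sequenced is not stated, and how the MEK5DD cells were made is not given in the sources used here. All groups were grown with serum and harvested at 70% confluence, so serum growth factors were present in every culture. The labels carry a number after the letter p, which was 29 and 30 in MDA-MB-231 parental, 7 and 8 in ERK5-ko and 10 and 11 in MEK5DD libraries. In Hs-578T the number was 83 and 84 in parental libraries and 8 and 9 in both other groups, so a comparison with parental cells cannot separate these numbers from the genotype, and they cannot be told apart. Whether the 2 libraries of a group came from separate cultures is not stated, and the p-values measure only the spread between these libraries.

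PDGF ligands are secreted dimers that bring together the receptor tyrosine kinases PDGFRα and PDGFRβ, and FGF ligands pair FGF receptors with the help of heparan sulphate on the cell surface. Both families of receptor feed the RAS-ERK, PI3K-AKT and phospholipase C pathways. PDGFRβ is best known in mesenchymal cells such as fibroblasts and pericytes, and in breast cancer it is a feature of cells with a mesenchymal character. FGF1 and FGF2 lack a classical signal peptide and leave the cell by an unconventional route, whereas FGF5 and the PDGF chains carry one. PDGF-AA signals mainly through PDGFRα, PDGF-BB through both receptors, and PDGF-CC needs cleavage of its CUB domain by an extracellular protease before it can bind.

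Promoter windows of RefSeq (GRCh38.p14, 250 bases before and 50 after a transcription start) were examined for 6 of the 9 genes (14 windows). No window of FGFR1, PDGFB or PDGFC was examined, so the motif counts do not cover these genes. Among the 6 genes examined, PDGFRB, FGF1 and FGF5 had the widest spread of group means within a cell line. The stretches before the start are shown for these members and for PDGFRA, whose RNA separated the lines most. They are chr5:150155846-150156095 on the minus strand, chr5:142644240-142644489 on the minus strand, the most downstream of the 4 windows held for FGF1, chr4:80266338-80266587 on the plus strand and chr4:54229043-54229292 on the plus strand. Each is printed 5′ to 3′ in the direction of the gene, and capitals mark matches, on either strand, to the AP-1 motif TGANTCA or to the GC box GGGCGG, which reads CCGCCC on the other strand.
PDGFRB: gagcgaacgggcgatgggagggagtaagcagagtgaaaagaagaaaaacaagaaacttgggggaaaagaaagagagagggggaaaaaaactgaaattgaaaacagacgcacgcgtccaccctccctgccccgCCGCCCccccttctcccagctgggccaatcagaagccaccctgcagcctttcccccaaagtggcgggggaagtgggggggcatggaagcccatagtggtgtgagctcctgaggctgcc
FGF1: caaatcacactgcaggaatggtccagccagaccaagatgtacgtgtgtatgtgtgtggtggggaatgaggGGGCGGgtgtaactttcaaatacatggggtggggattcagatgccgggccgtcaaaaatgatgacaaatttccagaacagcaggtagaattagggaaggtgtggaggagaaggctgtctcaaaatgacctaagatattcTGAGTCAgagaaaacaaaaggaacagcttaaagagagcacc
FGF5: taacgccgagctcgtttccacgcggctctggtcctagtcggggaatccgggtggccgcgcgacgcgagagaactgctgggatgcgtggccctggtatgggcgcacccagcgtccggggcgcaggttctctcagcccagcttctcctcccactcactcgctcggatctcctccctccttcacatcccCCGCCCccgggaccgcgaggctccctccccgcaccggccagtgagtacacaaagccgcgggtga
PDGFRA: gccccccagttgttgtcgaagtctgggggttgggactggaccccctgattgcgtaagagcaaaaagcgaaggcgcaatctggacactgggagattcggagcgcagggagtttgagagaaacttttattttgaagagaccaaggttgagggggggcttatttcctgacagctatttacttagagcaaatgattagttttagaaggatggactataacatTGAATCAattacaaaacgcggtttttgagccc
TGANTCA is its own reverse complement apart from the middle base, overlapped no GC box match in these windows, and was found in the shown windows of FGF1 (position -41 from the start) and PDGFRA (position -32), in 2 of the 14 windows. These windows of FGF1 and PDGFRA were shown because they hold this match. The other window of PDGFRA (chromosome 4, 54233710 to 54234009) has none but 2 GC boxes, at -139 and -27, a second window of FGF5 has neither motif, and 1 of the other 3 windows of FGF1 has a GC box. TGANTCA occurs in 7.71% of all 35116 windows of this length. GGGCGG, which occurs in 45% of all windows, matched at position -118 in PDGFRB, -180 in FGF1 and -64 in FGF5. The PDGFRB window holds another match at position 19, after the start and so outside the stretch shown. The MEF2 motif (CTA and TAG with any 4 bases between them), present in 2.73% of all windows, matched in none of the 14, which says only that these letters are not in these windows. Which start each cell line used was not measured.

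Whole reads were recovered for every gene from the RPKM values, with library totals of 20248162 to 27791195 reads. Replicates were farther apart in Hs-578T parental and MEK5DD than in the other groups, with a chi-square per degree of freedom between the reads of both libraries of 30.7 and 41.9, against 2.81 to 8.78 (a value of 1 would be counting noise alone), whereas limma estimated 1 variance per gene over all groups. MAPK7 RNA was not lower in ERK5-ko libraries, with a mean RPKM of 17.0 against 13.8 in MDA-MB-231 (log2 difference 0.29, adjusted p = 0.0709, limma) and 18 against 15 in Hs-578T (0.26, adjusted p = 0.0624). A gene total does not show a frame shift within an exon, so these values do not check the knockout label. MAP2K5 was higher in MEK5DD libraries by 3.77 on the log2 scale in MDA-MB-231 and by 0.50 in Hs-578T. Of the markers used to check the cells, VIM, CD44 and AXL were at an RPKM of at least 388 in every library, and their sum was 3143 to 3342 in MDA-MB-231 parental, 3302 to 3390 in ERK5-ko and 5560 to 5591 in MEK5DD libraries (VIM 1680 and 3450 in the means of parental and MEK5DD), and 4695 to 5763 in Hs-578T, while ESR1 never exceeded 7 reads and PGR 23 reads. The summed RPKM of the epithelial markers EPCAM, CDH1 and KRT19 was 518 to 527 in MDA-MB-231 parental, 773 to 803 in ERK5-ko and 244 to 259 in MEK5DD libraries, and at most 1.36 in Hs-578T. KRT19 made up most of this sum (means of 503, 762 and 244), while CDH1 was at 0.645, 0.61 and 0.0188 in MDA-MB-231 and at 0.168, 1.04 and 0.133 in Hs-578T in the same order of groups. Of the endothelial markers CDH5 and VWF reached at most 7 reads, but PECAM1 was read in every library, at a mean RPKM of 0.768 in MDA-MB-231 parental, 0.263 in ERK5-ko and 0.252 in MEK5DD libraries, and of 5.55, 6.39 and 2.89 in those of Hs-578T. The immune genes PTPRC and CD3E reached at most 13 reads, whereas the macrophage gene CD68 was at 107 to 108 in MDA-MB-231 MEK5DD libraries, 52.5 to 69.0 in the others of that line (sums with PTPRC and CD3E) and 23.2 or more in Hs-578T. The summed level of ESR1, PGR, ERBB2, GATA3 and FOXA1 lay between 33.0 and 64.8. The part of these markers in the differences described here was not tested.

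In parental cells the 2 lines differed in both receptor and ligand RNAs. Hs-578T had all 3 receptor RNAs at high level, whereas MDA-MB-231 had FGFR1, a low level of PDGFRB and hardly any PDGFRA. By RPKM the order in MDA-MB-231 parental controls was PDGFC (91.4), FGFR1 (60.3), PDGFRB (14.6), PDGFA (4.64), PDGFB (2.07), FGF5 (2.03), FGF1 (1.28), PDGFRA (0.0629) and FGF2 (no reads), and the replicate values of PDGFB and FGF5 overlapped. In Hs-578T parental controls the order was PDGFRB (204), FGFR1 (109), PDGFRA (83.7), PDGFC (38.5), PDGFA (30.3), FGF5 (17.4), FGF2 (4.42), FGF1 (2.0) and PDGFB (0.0782), and the replicate values of FGFR1 and PDGFRA overlapped. These levels rest on the gene lengths behind the deposited values, which for 8 of the 9 genes are 14.6% to 46.2% of the exon bases annotated in GENCODE 29 and for FGF2 5807 of 6775. With the annotated lengths the order stayed the same in Hs-578T, and in MDA-MB-231 FGF5 moved ahead of PDGFB. For PDGFRA, FGF2 and PDGFB a difference between the parental lines follows from the filter, which they passed through a single line. The 6 other genes reached the filter in both lines, and 5 were lower (PDGFRB, PDGFA, FGFR1, FGF1 and FGF5) and 1 higher (PDGFC) in MDA-MB-231 at an adjusted p under 0.05 (limma), where 77.4% of the 13737 tested genes differed. The median log2 difference of these 6 was -1.72, beside 0.19 over all tested genes, and this latter median moved to -0.02 with median-ratio scaling. Of the 6, FGF1 differed least (-0.48, adjusted p = 0.0151, limma) and did not pass with a pseudocount of 0.1 (-0.6, adjusted p = 0.108). Its difference was -0.35 without Hs-578T parental replicate 1.

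**Figure D1:**
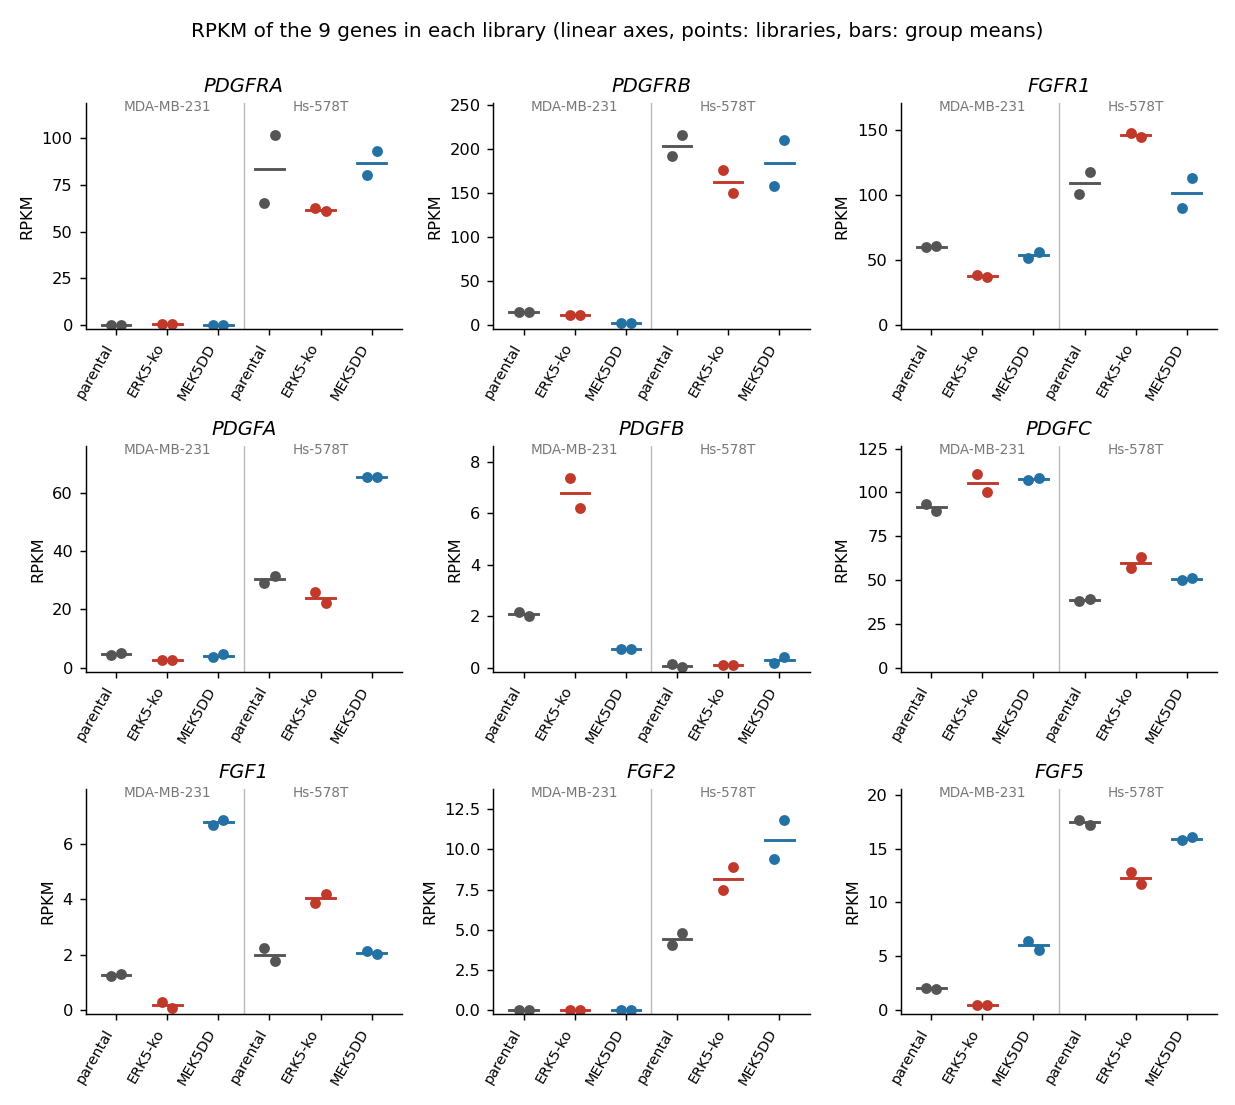
RPKM of each gene (linear axes from 0, 1 panel per gene) in the 6 groups, with 1 point per library and a bar at the mean of the 2 libraries. PDGFRA and FGF2 sit at or near 0 in MDA-MB-231, PDGFB is at 0.410 or less in Hs-578T, and FGF1 and FGF5 of MDA-MB-231 step from ERK5-ko through parental to MEK5DD.

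PDGFRA (ENSG00000134853.11, chromosome 4, 54229097 to 54298247 of GRCh38, plus strand) encodes PDGFRα, the receptor that binds the A, B and C chains. In MDA-MB-231 it had 3 and 3 reads in the parental libraries, 12 and 12 in ERK5-ko and 0 and 4 in MEK5DD libraries. In Hs-578T its RPKM was 65.5 and 102 in parental, 62.5 and 61.0 in ERK5-ko and 80.5 and 93.0 in MEK5DD libraries. The gene was thus close to the limit of 3 reads in MDA-MB-231 and abundant in every Hs-578T library. Reads per total were 1323 times as many in Hs-578T parental controls as in those of MDA-MB-231 (95% exact binomial interval 607 to 3605, which covers counting error only). In MDA-MB-231 the 24 reads of ERK5-ko libraries against 6 in parental controls gave a log2 difference of 0.47 that did not pass (adjusted p = 0.0902, limma). It passed with a pseudocount of 0.1 in place of 0.5 (1.21, adjusted p = 0.00908), in a fit of that line alone (0.47, adjusted p = 0.0139) and without Hs-578T parental replicate 1 (adjusted p = 0.0166) or 2 (adjusted p = 0.0169). The ratio of reads per total was 4.42 (interval 1.76 to 13.2). In Hs-578T the ERK5-ko libraries lay below both parental libraries, by -0.40 on the log2 scale (95% interval -0.78 to -0.02, adjusted p = 0.088), and MEK5DD libraries lay between the parental values (0.08, interval -0.30 to 0.46). The 2 Hs-578T parental libraries were farther apart (SD 25.7) than those of ERK5-ko (SD 1.1) and MEK5DD (SD 8.83), and the ERK5-ko difference was -0.72 without parental replicate 1 (adjusted p = 0.00299) and -0.09, which did not pass, without parental replicate 2. AC058822.1 shares 1533 exon bases with PDGFRA on the same strand, 15.8% of its annotated exons, and how reads in shared exons were assigned is not given in the sources used here.

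PDGFRB (ENSG00000113721.13, chromosome 5, 150113837 to 150155872, minus strand) encodes PDGFRβ, the main receptor for PDGF-BB. In MDA-MB-231 its RPKM was 14.3 and 14.9 in parental, 11.4 and 11.3 in ERK5-ko and 2.15 and 1.76 in MEK5DD libraries. In Hs-578T it was 192 and 216 in parental, 176 and 150.3 in ERK5-ko and 158 and 209.8 in MEK5DD libraries. Both MEK5DD libraries of MDA-MB-231 stood far below the other 4 of that line, with 71 and 67 reads against 353 to 566. PDGFRB fell by 2.62 on the log2 scale in MDA-MB-231 MEK5DD cells (standard error 0.138, adjusted p = 5.98e-08, limma), from a mean RPKM of 14.6 ± 0.425 to 1.96 ± 0.276 (SD, n = 2 each), a 7.43-fold lower mean. In Hs-578T the MEK5DD and parental libraries overlapped, and the log2 difference was -0.16 (95% interval -0.47 to 0.14), -0.37 without MEK5DD replicate 2 (adjusted p = 0.048) and 0.04 without MEK5DD replicate 1. The MEK5DD difference itself differed between the lines by -2.46 (adjusted p = 3.52e-06). In ERK5-ko libraries PDGFRB lay below the parental values in both lines without overlap, by -0.35 in MDA-MB-231 (adjusted p = 0.112) and by -0.32 in Hs-578T (adjusted p = 0.0838), and neither passed. Without either Hs-578T MEK5DD library, which belong to neither comparison, both passed at the same size (adjusted p = 0.0354 and 0.0261). As RNA was taken from whole cultures, fewer cells with PDGFRB RNA and less of it per cell cannot be told apart.

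FGFR1 (ENSG00000077782.19, chromosome 8, 38411138 to 38468834, minus strand) encodes the FGF receptor best known in mesenchymal cells. In MDA-MB-231 its RPKM was 59.6 and 61.0 in parental, 38.0 and 36.9 in ERK5-ko and 51.7 and 55.9 in MEK5DD libraries. In Hs-578T it was 101 and 118 in parental, 148 and 145 in ERK5-ko and 90.3 and 113 in MEK5DD libraries. ERK5-ko libraries were therefore the lowest of MDA-MB-231 and the highest of Hs-578T, with no overlap in either line. FGFR1 fell by 0.68 on the log2 scale in MDA-MB-231 ERK5-ko cells (standard error 0.113, adjusted p = 0.0021, limma) and rose by 0.43 in Hs-578T ERK5-ko cells (standard error 0.113, adjusted p = 0.0117). The difference between the lines was -1.11 (adjusted p = 0.000309). In a limma fit of the Hs-578T libraries alone the rise did not pass (0.43, adjusted p = 0.0867). The rise in Hs-578T no longer passed when parental replicate 1 (0.31, adjusted p = 0.092), ERK5-ko replicate 1 (0.41, adjusted p = 0.0622) or ERK5-ko replicate 2 (0.44, adjusted p = 0.0574) was left out. MEK5DD libraries differed from parental controls by -0.16 (95% interval -0.41 to 0.09) in MDA-MB-231 and by -0.11 (interval -0.36 to 0.14) in Hs-578T. LETM2 shares 138 and AC087623.1 156 exon bases with FGFR1 on the opposite strand, and the library kit marks strand.

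The PDGF ligands moved in separate ways. PDGFA (ENSG00000197461.13, chromosome 7, 497258 to 520296, minus strand) encodes the A chain. In MDA-MB-231 its RPKM was 4.33 and 4.95 in parental, 2.45 and 2.62 in ERK5-ko and 3.71 and 4.53 in MEK5DD libraries, and in Hs-578T 29.2 and 31.5, 25.8 and 22.2, and 65.5 and 65.4 in the same order. Both MEK5DD libraries of Hs-578T lay above the parental ones, at 2.16 times their mean, while those of MDA-MB-231 overlapped the parental range. PDGFA rose by 1.1 on the log2 scale in Hs-578T MEK5DD cells (standard error 0.119, adjusted p = 0.000114, limma), and this difference was larger than in MDA-MB-231 by 1.26 (MDA-MB-231 minus Hs-578T -1.26, adjusted p = 0.00016). In ERK5-ko cells PDGFA fell in both lines, by 0.76 in MDA-MB-231 (adjusted p = 0.00145) and by 0.33 in Hs-578T (adjusted p = 0.0455). The fall in Hs-578T was lost when any 1 of 7 of the 12 libraries was left out, with adjusted p values up to 0.295, that without ERK5-ko replicate 2, and in a fit of that line alone (adjusted p = 0.0849).

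PDGFB (ENSG00000100311.16, chromosome 22, 39223359 to 39244751, minus strand) encodes the B chain, which binds both PDGF receptors. In MDA-MB-231 its RPKM was 2.15 and 1.99 in parental, 7.39 and 6.20 in ERK5-ko and 0.728 and 0.733 in MEK5DD libraries, from 76 and 79, 238 and 221, and 25 and 29 reads. The 3 groups did not overlap, with ERK5-ko on top and MEK5DD at the bottom. PDGFB rose by 1.5 on the log2 scale in MDA-MB-231 ERK5-ko cells (standard error 0.148, adjusted p = 6.73e-05, limma), 3.28 times by the means, and fell by 1.06 in MEK5DD cells (adjusted p = 0.000146), 2.84 times by the means. In Hs-578T it had 4 and 1 reads in parental, 3 and 3 in ERK5-ko and 5 and 12 in MEK5DD libraries, at most an RPKM of 0.410. The MEK5DD difference there was 0.44 (adjusted p = 0.0513), and the ratio of reads per total was 3.63 (95% exact binomial interval 1.29 to 12.6). The differences between the lines were 1.48 for ERK5-ko (adjusted p = 0.000256) and -1.5 for MEK5DD (adjusted p = 0.000198), both against a level near the floor in Hs-578T.

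PDGFC (ENSG00000145431.10, chromosome 4, 156760454 to 156971394, minus strand) encodes the C chain and was the highest of the ligand genes in every group of MDA-MB-231. Its RPKM there was 93.6 and 89.3 in parental, 110.3 and 100.5 in ERK5-ko and 107 and 108 in MEK5DD libraries. In Hs-578T it was 37.7 and 39.2 in parental, 56.8 and 62.9 in ERK5-ko and 49.8 and 51.3 in MEK5DD libraries. Parental libraries were the lowest of both lines, without overlap. PDGFC rose by 0.63 on the log2 scale in Hs-578T ERK5-ko cells (standard error 0.0852, adjusted p = 0.00018, limma) and by 0.39 in Hs-578T MEK5DD cells (adjusted p = 0.00749, and 0.0711 in a fit of that line alone). In MDA-MB-231 the differences were smaller, 0.20 in ERK5-ko (adjusted p = 0.131) and 0.23 in MEK5DD cells (adjusted p = 0.0482), and the latter was lost when any 1 of 8 of the 12 libraries was left out, with adjusted p values up to 0.229, that without MDA-MB-231 parental replicate 2. The ERK5-ko difference was smaller in MDA-MB-231 than in Hs-578T, by -0.43 (adjusted p = 0.0158, limma). With 1 library left out this difference between the lines ranged from -0.50 to -0.36, and the call was lost without at least 1 library.

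Of the FGF ligand genes, FGF1 and FGF5 changed in ERK5-ko cells of both lines, and FGF2 was read only in Hs-578T. FGF1 (ENSG00000113578.17, chromosome 5, 142592178 to 142698070, minus strand) encodes acidic FGF, a ligand of all FGF receptors. In MDA-MB-231 its RPKM was 1.24 and 1.32 in parental, 0.315 and 0.0658 in ERK5-ko and 6.69 and 6.85 in MEK5DD libraries, from 56 and 67, 13 and 3, and 294 and 347 reads. In Hs-578T it was 2.23 and 1.77 in parental, 3.88 and 4.2 in ERK5-ko and 2.14 and 2.03 in MEK5DD libraries. In MDA-MB-231 the 3 groups were apart, lowest in ERK5-ko and highest in MEK5DD, while in Hs-578T ERK5-ko libraries were the highest and the other groups overlapped. FGF1 fell by 1.39 on the log2 scale in MDA-MB-231 ERK5-ko cells (standard error 0.158, adjusted p = 0.000195, limma). Reads per total were 6.96 times as many in parental controls as in ERK5-ko libraries (95% exact binomial interval 4.12 to 12.6). FGF1 rose by 2.03 in MDA-MB-231 MEK5DD cells (adjusted p = 1.47e-06), 5.29 times by the means, and by 0.87 in Hs-578T ERK5-ko cells (adjusted p = 0.00133), 2.02 times by the means. In Hs-578T MEK5DD cells the difference was 0.05 (95% interval -0.30 to 0.40). The differences between the lines were -2.26 for ERK5-ko (adjusted p = 2.42e-05) and 1.98 for MEK5DD (adjusted p = 4.65e-05).

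FGF2 (ENSG00000138685.12, chromosome 4, 122826708 to 122898236, plus strand) encodes basic FGF. It had 0 reads in all 6 MDA-MB-231 libraries, where a count of 0 allows up to 3 reads per library. In Hs-578T its RPKM was 4.07 and 4.78 in parental, 7.48 and 8.88 in ERK5-ko and 9.39 and 11.8 in MEK5DD libraries. The parental libraries of Hs-578T were the lowest, and reads per total there were at least 215-fold higher than the floor of 3 reads per library in MDA-MB-231. FGF2 rose by 0.82 on the log2 scale in Hs-578T ERK5-ko cells (standard error 0.132, adjusted p = 0.000601, limma) and by 1.17 in Hs-578T MEK5DD cells (adjusted p = 0.000153), 1.85 and 2.39 times by the means. NUDT6, the FGF2 antisense gene, shares 804 exon bases with it on the opposite strand, 11.9% of its annotated exons. NUDT6 itself was read in every library, at an RPKM of 2.43 to 5.83, including those of MDA-MB-231 without a read on FGF2.

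FGF5 (ENSG00000138675.16, chromosome 4, 80266599 to 80336680, plus strand) encodes a secreted FGF known for ending the growth phase of the hair follicle. In MDA-MB-231 its RPKM was 2.07 and 1.99 in parental, 0.495 and 0.477 in ERK5-ko and 6.46 and 5.62 in MEK5DD libraries. In Hs-578T it was 17.6 and 17.2 in parental, 12.8 and 11.7 in ERK5-ko and 15.8 and 16.0 in MEK5DD libraries. MDA-MB-231 showed the order of FGF1, ERK5-ko lowest and MEK5DD highest with no overlap, and in Hs-578T ERK5-ko was again the lowest. FGF5 fell in ERK5-ko cells of both lines, by 1.36 on the log2 scale in MDA-MB-231 (standard error 0.104, adjusted p = 1.13e-05, limma) and by 0.50 in Hs-578T (standard error 0.104, adjusted p = 0.00306). The fall was larger in MDA-MB-231, with a difference between the lines of -0.86 (adjusted p = 0.000886). FGF5 rose by 1.37 in MDA-MB-231 MEK5DD cells (adjusted p = 1.18e-06), 2.98 times by the means, and the difference in Hs-578T MEK5DD cells was -0.13 (95% interval -0.35 to 0.10). The MEK5DD differences were apart by 1.49 between the lines (adjusted p = 1.78e-05). CFAP299 shares 136 exon bases with FGF5 on the same strand, 2.27% of its annotated exons.

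**Figure D2:**
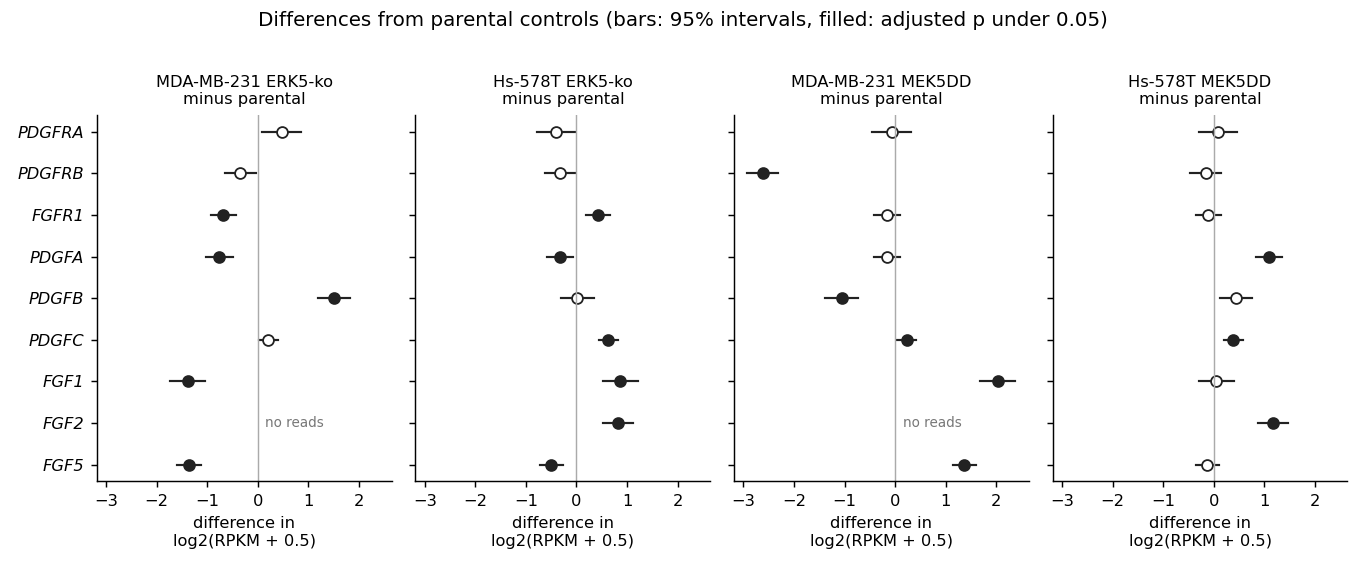
Difference from parental controls of the same line in log2(RPKM + 0.5) for each gene (horizontal axis), with 95% intervals from limma, and filled points where the adjusted p was under 0.05. In MDA-MB-231 FGF1 and FGF5 lie left of 0 in ERK5-ko (-1.39 and -1.36) and right of 0 in MEK5DD (2.03 and 1.37), and FGF2 has no point there because it had no reads.

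Counted over the 9 genes, 1 rose and 4 fell in MDA-MB-231 ERK5-ko cells, where 6.91% of all tested genes rose and 10.4% fell. In Hs-578T ERK5-ko cells 4 rose and 2 fell, where 19.7% of all tested genes rose and 19.7% fell. In MDA-MB-231 MEK5DD cells 3 rose and 2 fell, beside 17.5% and 23.8% of all genes, and in Hs-578T MEK5DD cells 3 rose and 0 fell, beside 6.44% and 17%. The median log2 difference of the 9 genes was -0.35 in MDA-MB-231 ERK5-ko cells (-0.04 over all tested genes), 0.02 in Hs-578T ERK5-ko cells (0.01), -0.06 in MDA-MB-231 MEK5DD cells (-0.01) and 0.08 in Hs-578T MEK5DD cells (-0.08). In MDA-MB-231 these counts and medians include FGF2, which had no reads there and could not differ. The median of -0.06 is the value of PDGFRA, on 0 and 4 reads in MEK5DD against 3 and 3 in parental libraries. No gene of the set fell in Hs-578T MEK5DD cells by limma, and the count was also 0 at an unadjusted p under 0.05 and with limma voom, but PDGFRB passed without MEK5DD replicate 2 (-0.37, adjusted p = 0.048). The ERK5-ko and MEK5DD comparisons of a line share their parental libraries, so their opposite signs for FGF1, FGF5 and PDGFB in MDA-MB-231 are not independent of each other.

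Set directly against each other, ERK5-ko and MEK5DD cells of MDA-MB-231 differed in 7 of the 9 genes, where 55% of all tested genes did. FGF2, counted among the 9, had no reads in this line. FGF1 was lower in ERK5-ko than in MEK5DD cells by -3.42 on the log2 scale (adjusted p = 1.17e-08, limma) and FGF5 by -2.73 (adjusted p = 2.5e-09). PDGFB was higher in ERK5-ko cells by 2.56 (adjusted p = 6.92e-08) and PDGFRB by 2.27 (adjusted p = 1.09e-07). These 4 genes had the widest gaps between the groups, and PDGFA (-0.60), FGFR1 (-0.52) and PDGFRA (0.53, on 24 against 4 reads) followed. In Hs-578T 8 of the 9 genes passed, beside 50% of all tested genes, with PDGFA lower in ERK5-ko by -1.43 (adjusted p = 2.84e-06) and FGF1 higher by 0.81 (adjusted p = 0.00142) at the ends. FGFR1 was higher by 0.53 and PDGFC by 0.24, and PDGFRA (-0.48), PDGFB (-0.42, on 6 against 17 reads), FGF5 (-0.37) and FGF2 (-0.35) were lower. This count fell to 4 without ERK5-ko replicate 2, to 5 without any of MDA-MB-231 parental replicate 1 or 2, ERK5-ko replicate 1 or MEK5DD replicate 2 of Hs-578T, and to 4 in a fit of the Hs-578T libraries alone.

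The difference between the lines was tested for each gene as a contrast of contrasts. For ERK5-ko it passed in 7 of the 9 genes, where 39.8% of all tested genes did, and for MEK5DD in 6 of 9, where 39.6% did. MAP2K5 RNA was higher by 3.77 on the log2 scale in MDA-MB-231 MEK5DD cells and by 0.50 in those of Hs-578T. The MEK5DD contrasts thus set unlike MAP2K5 RNA levels against each other, and the part of this was not tested. FGF1 and FGFR1 fell in MDA-MB-231 ERK5-ko cells and rose in those of Hs-578T. They were the only members that passed in both lines with opposite signs, and how many of all tested genes did so was not counted. The rise of FGFR1 did not pass in a fit of the Hs-578T libraries alone. FGF5 and PDGFA fell in ERK5-ko cells of both lines. For PDGFRA (0.87, adjusted p = 0.0161), PDGFB and FGF2 (-0.82, adjusted p = 0.00531 for ERK5-ko, and -1.17, adjusted p = 0.000545 for MEK5DD) the contrast sets a line with reads against one with few or none. With limma voom on whole reads, these ERK5-ko contrasts did not pass (adjusted p = 0.0525 for PDGFRA, 0.1 for PDGFB and 0.542 for FGF2), nor did that of FGF2 for MEK5DD (0.312).

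**Figure D3:**
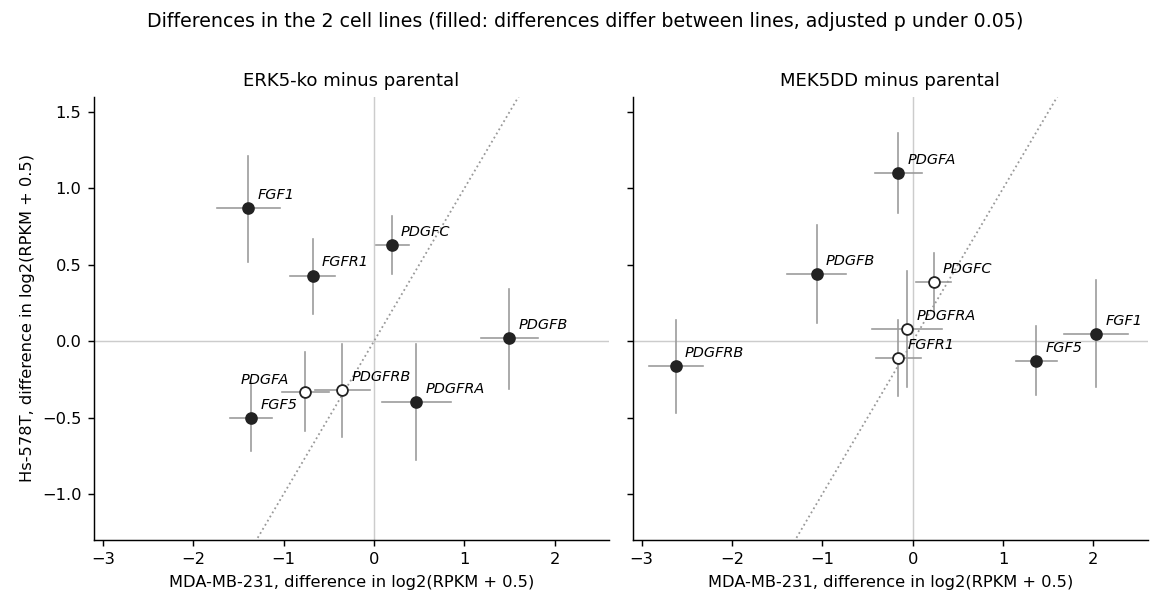
Difference from parental controls in log2(RPKM + 0.5) in MDA-MB-231 (horizontal axis) and Hs-578T (vertical axis) for ERK5-ko (left) and MEK5DD (right), with 95% intervals, the dotted line marking equal differences and filled points a difference between the lines at an adjusted p under 0.05. FGF1 (-1.39 and 0.87) and FGFR1 (-0.68 and 0.43) lie in the upper left for ERK5-ko, PDGFRB lies far left (-2.62 and -0.16) for MEK5DD, and FGF2, without reads in MDA-MB-231, is not drawn.

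The other genes of the 2 pathways were described from 7 lists of 66 genes, of which 45 were tested. In MDA-MB-231 ERK5-ko cells 3 of the 45 rose (6.67%, beside 6.91% of all tested genes) and 9 fell (20%, beside 10.4%), and in Hs-578T ERK5-ko cells 14 rose (31.1%, beside 19.7%) and 9 fell (20%, beside 19.7%). In MEK5DD cells 7 rose (15.6%, beside 17.5%) and 17 fell (37.8%, beside 23.8%) in MDA-MB-231, and 5 rose (11.1%, beside 6.44%) and 10 fell (22.2%, beside 17%) in Hs-578T. Both other PDGF family genes changed in all 4 comparisons with parental controls. PDGFD, a ligand of PDGFRβ, rose by 0.44 and 1.02 in MDA-MB-231 ERK5-ko and MEK5DD cells and fell by 0.63 and 0.51 in those of Hs-578T. PDGFRL, a receptor-like gene without a kinase domain, fell by 0.90 and rose by 0.86 in MDA-MB-231 ERK5-ko and MEK5DD cells, and fell by 0.65 and 0.96 in Hs-578T. Of the 19 other FGF ligand genes only 4 reached the filter. FGF13, an intracellular FGF homolog, fell in Hs-578T by 1.13 in ERK5-ko and 2.14 in MEK5DD cells and had at most 10 reads in any MDA-MB-231 library. In Hs-578T ERK5-ko cells FGF21 differed by 0.86, on 33 against 5 reads, and FGF12 by -0.54.

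Among the other FGF receptors and Klotho co-receptors, 3 of 6 genes were tested. FGFR4 fell in MDA-MB-231 by 1.11 in ERK5-ko and 1.15 in MEK5DD cells, at a mean RPKM of 1.96 in parental controls. FGFRL1, which lacks a kinase domain, and FGFR3 rose by 0.50 and 0.42 in Hs-578T ERK5-ko cells and fell by 0.32 and 0.45 in Hs-578T MEK5DD cells, and FGFRL1 fell by 0.33 in MDA-MB-231 MEK5DD cells. FGFR2 was at 4 reads or fewer in every library, and KL and KLB at 2 or fewer. FGFR1 had at least 1736 reads in every library, against at most 206 for FGFR3 and 129 for FGFR4. Of the 10 tested heparan sulphate proteoglycans and FGF carriers, 5 fell and 2 rose in MDA-MB-231 MEK5DD cells, beside 23.8% and 17.5% of all tested genes. The largest differences were those of GPC1 (-1.96) and SDC3 (-1.89), both cell surface proteoglycans, and FGFBP1 (-1.47), a secreted FGF carrier. GPC1 rose by 0.67 in MDA-MB-231 ERK5-ko cells and fell by 0.56 in those of Hs-578T, where SDC3 (-0.98) and SDC1 (-0.80) fell too. In Hs-578T MEK5DD cells 4 fell and 0 rose, beside 17% and 6.44% of all tested genes, with GPC6 (-0.86), SDC2 (-0.62) and FGFBP3 (-0.52) in front.

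Of the 10 tested feedback genes and readouts of receptor signalling, 5 fell and 0 rose in MDA-MB-231 ERK5-ko cells, where 10.4% of all tested genes fell and 6.91% rose, and 5 rose and 1 fell in those of Hs-578T, where 19.7% of all tested genes rose and as many fell. Passing in both lines with opposite signs were 4 of the 10, and how many of all tested genes did so was not counted. SPRY4, a Sprouty inhibitor of receptor signalling, fell by 0.69 in MDA-MB-231 and rose by 0.49 in Hs-578T, and DUSP6, an ERK phosphatase, fell by 0.59 and rose by 0.44. The ETS factor genes ETV5 and ETV4, which follow FGF and ERK activity, fell by 0.59 and 0.35 in MDA-MB-231 and rose by 0.56 and 1.42 in Hs-578T. SPRY1 was the 1 gene that fell in Hs-578T, by 0.68. The difference between the lines passed for 8 of the 10 genes, where 39.8% of all tested genes passed. Of these, 7 were lower and 1 higher in MDA-MB-231, and the median of the 10 was -0.79 beside -0.05 over all tested genes. In Hs-578T MEK5DD cells 4 rose and 0 fell, led by DUSP6 (1.26), SPRY2 (1.04) and SPRY4 (0.64), and in MDA-MB-231 MEK5DD cells 2 rose and 4 fell, with SPRY1 (-0.97), SPRED3 (0.90) and SPRED1 (-0.73) in front. Of all tested genes 6.44% rose and 17% fell in Hs-578T MEK5DD cells, and 17.5% and 23.8% in those of MDA-MB-231. None of the 13 tested adaptors and effectors changed in MDA-MB-231 ERK5-ko cells, beside 6.91% and 10.4% of all tested genes that rose and fell. In MDA-MB-231 MEK5DD cells SRC fell by 3.08, from a mean RPKM of 29.2 to 3.01, while PIK3R1 rose by 1.05. In Hs-578T CBL and PTPN11 rose by 0.80 and 0.74 in ERK5-ko cells, and GRB2 fell by 0.33 in MEK5DD cells.

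Of the 3 proteases that process PDGF chains, PLAU fell by 1.33 in MDA-MB-231 ERK5-ko cells. All 3 rose in Hs-578T ERK5-ko cells, where 19.7% of all tested genes rose, PLAT by 0.62, PLAU by 0.58 and FURIN by 0.55. FURIN cleaves PDGF proproteins inside the cell, and PLAT and PLAU encode the plasminogen activators tPA and uPA, of which tPA is known to activate PDGF-CC. In MDA-MB-231 MEK5DD cells, where 23.8% of all tested genes fell, all 3 fell, PLAT by 1.35, FURIN by 0.62 and PLAU by 0.38. PLAU rose by 0.55 in Hs-578T MEK5DD cells.

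**Figure D4:**
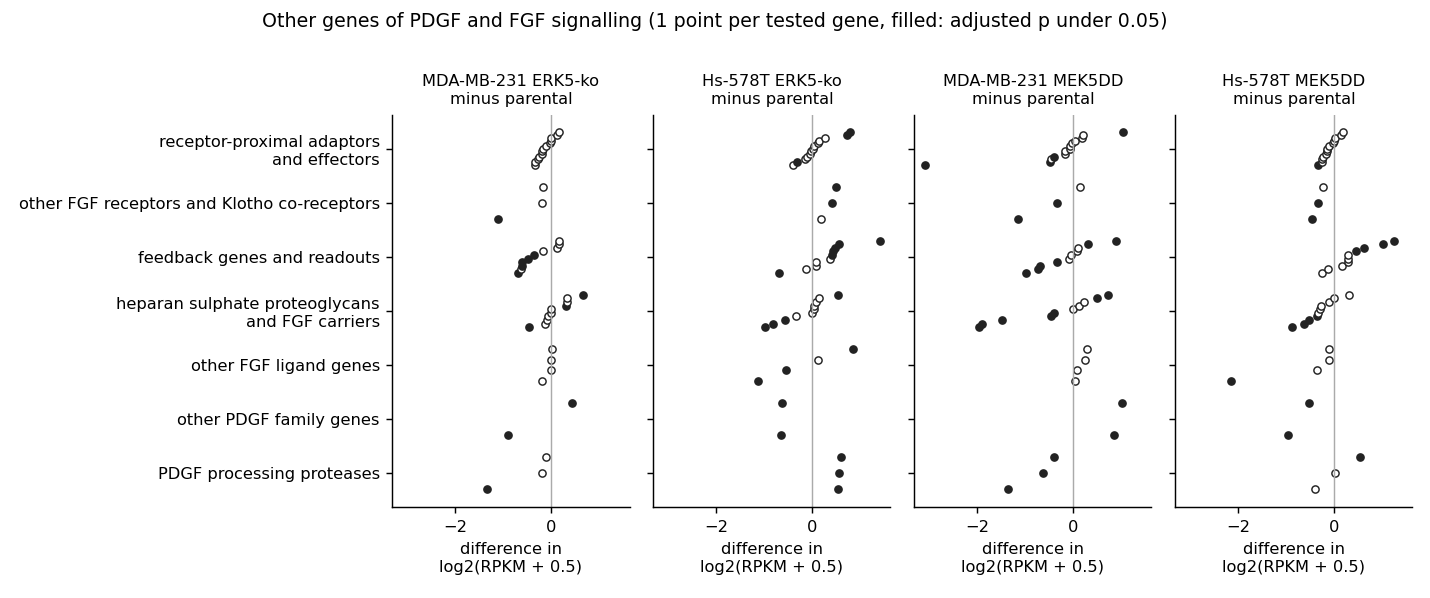
Difference from parental controls in log2(RPKM + 0.5) (horizontal axis) of the 45 tested genes of the 7 lists (rows), 1 point per gene, spread within a row only for sight, with filled points at an adjusted p under 0.05. The feedback genes lie mostly left of 0 in MDA-MB-231 ERK5-ko (median -0.42) and mostly right of 0 in Hs-578T ERK5-ko (median 0.40), and the point farthest left in MDA-MB-231 MEK5DD is SRC (-3.08).

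Genes whose pattern was most like that of FGF1, FGF5 and PDGFRB, the 3 members with the widest range of group means, were found by Pearson r of log2(RPKM + 0.5) over the 12 libraries after the mean of each line was subtracted, among 12423 candidates. These are descriptions, since the 12 points form 6 pairs of replicates. For FGF1 they were SEMA7A (r = 0.986), BUB3 (0.985) and LRIF1 (0.983). For FGF5 they were TDP1 (0.991), ESAM (0.988) and RCN3 (0.985), of which ESAM, an endothelial cell adhesion molecule, went from a mean RPKM of 12.6 in MDA-MB-231 parental controls to 3.84 in ERK5-ko and 63.2 in MEK5DD cells. For PDGFRB they were APCDD1L (0.998), CD99L2 (0.993) and NUP210 (0.989). APCDD1L went from a mean RPKM of 18.7 in MDA-MB-231 parental controls to 2.89 in MEK5DD cells, and NUP210 from 20.7 to 0.193.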

How the data were processed

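RNA of parental, ERK5-ko and MEK5DD cells was sequenced in 12 stranded mRNA libraries, grouped by cell line and label. The authors deposited RPKM values. The submitters' processing notes name bcl2fastq, Trimmomatic 0.32, TopHat2 2.1.1, R 3.3.1, DESeq2 1.12.4 and GRCh38, and the counting tool and annotation are not given in the sources used here. Whole reads, gene lengths and library totals were solved from the deposited RPKM values (all 32152 genes within 0.001 reads, and 0 of 500 genes with totals 1% off). Tested were 13737 protein-coding genes, those that reached an RPKM of 0.5 in 2 or more libraries. Their log2(RPKM + 0.5) values entered limma 3.58.1 (R 4.3.3) with a mean per group, all 12 libraries and a variance trend, which left 6 residual degrees of freedom. This scale understates changes of low genes. P-values were adjusted by Benjamini-Hochberg within each of 9 comparisons, and a gene passed, and rose or fell, at an adjusted p under 0.05. The fit was tested on simulated data. Genes with 3 reads or fewer were taken as at the floor. Members and gene lists were chosen with earlier results of these data known. Beyond the members, the text names up to 3 genes per list and comparison that passed with the largest difference, also in other comparisons, and 3 genes of like pattern for each of 3 members. The fold limits of the study's call rule were tried as an alternative, since they are unequal for higher and lower genes. Tables and figures were made with pandas 2.3.3, numpy 2.4.6 and matplotlib 3.10.9 under Python 3.11.15.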

Additional observations from a re-analysis of the deposited data

Results flagged for a closer look

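Differences between the cell lines under the same contrast passed the limma test of the difference itself in 13 cases, given here as MDA-MB-231 minus Hs-578T on the log2(RPKM + 0.5) scale. For ERK5-ko against parental controls they were FGF1 (-2.26), PDGFB (1.48), FGFR1 (-1.11), PDGFRA (0.87), FGF5 (-0.86), FGF2 (-0.82) and PDGFC (-0.43), with adjusted p values from 2.42e-05 for FGF1 to 0.0161 for PDGFRA. For MEK5DD against parental controls they were PDGFRB (-2.46), PDGFB (-1.5), FGF5 (1.49), FGF1 (1.98), PDGFA (-1.26) and FGF2 (-1.17), with adjusted p values from 3.52e-06 for PDGFRB to 0.000545 for FGF2. Of these, the 5 differences of PDGFRA, PDGFB and FGF2 set a line with reads against one with at most 12 reads per library. Those of PDGFC and PDGFRA for ERK5-ko were lost without at least 1 library. The widest, PDGFRB under MEK5DD, had 71 and 67 reads in MDA-MB-231 MEK5DD libraries and 483 and 566 in the parental ones, and the adjusted p of FGF1 under ERK5-ko rests on 13 and 3 reads in the MDA-MB-231 ERK5-ko libraries.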

How the results depend on the processing

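Of 56 member calls over the 9 comparisons, 44 passed without any 1 library, and the other 12 were lost without at least 1. Among the 44 are the parental line differences of PDGFRA, PDGFB and FGF2, which follow from the filter. The ERK5-ko and MEK5DD line contrasts of PDGFB and FGF2, also among them, set a line with reads against one with few or none. With the study's fold limits added, the number of members that passed fell to 3 in ERK5-ko against parental cells of both lines (from 5 in that of MDA-MB-231 and from 6 in that of Hs-578T), to 4 in ERK5-ko against MEK5DD of MDA-MB-231 (from 7), to 2 in that of Hs-578T (from 8), and to 4 in the ERK5-ko difference between lines (from 7). This is the construction of those limits, which need a larger fold. The same difference between lines gave 4 with voom on whole reads, and ERK5-ko against MEK5DD of Hs-578T gave 4 in a fit of that line alone and 4 to 8 when 1 library was left out. Signs turned only for values that did not pass. The ERK5-ko difference of PDGFRB between lines (-0.02) was 0.07 with median-ratio scaling, 0.03 with quantile normalization and -0.13 to 0.09 with 1 library left out, and that of PDGFA in MDA-MB-231 MEK5DD cells (-0.16) was 0.01 with quantile normalization. With 1 library left out, PDGFRA ranged from -0.17 to 0.04 in MDA-MB-231 MEK5DD cells, -0.24 to 0.40 in Hs-578T MEK5DD cells and -0.46 to 0.17 between lines for MEK5DD. PDGFRB ranged from -0.37 to 0.04 both for MEK5DD against parental and for ERK5-ko against MEK5DD in Hs-578T, PDGFB from -0.09 to 0.13 in Hs-578T ERK5-ko cells, and PDGFC from -0.10 to 0.04 for ERK5-ko against MEK5DD in MDA-MB-231. FGFR1 ranged from -0.27 to 0.05 in Hs-578T MEK5DD cells and -0.22 to 0.11 between lines for MEK5DD, and FGF1 from -0.08 to 0.19 in Hs-578T MEK5DD cells. The cause of these turns was not tested.

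Replicates of the same number share only that number in the labels. Their deviations correlated with r of 0.107 to 0.541 between groups of the same line, the highest for Hs-578T parental with MEK5DD. Between groups of different lines r was -0.418 to -0.0599. With the replicate block 5 members passed in MDA-MB-231 MEK5DD against parental cells, as without it, and 4 single values passed that had not, PDGFRA in ERK5-ko cells of MDA-MB-231 (0.47, adjusted p = 0.0427) and Hs-578T (-0.40, adjusted p = 0.0453), PDGFB in Hs-578T MEK5DD cells (0.44, adjusted p = 0.0483) and the ERK5-ko difference of PDGFA between lines (-0.43, adjusted p = 0.0304). The limits are depth, with PDGFRA in MDA-MB-231 and PDGFB in Hs-578T at 12 reads or fewer per library and FGF2 in MDA-MB-231 without a read, 2 libraries per group, and the wide spread between replicates of Hs-578T parental and MEK5DD libraries (chi-square per degree of freedom of 30.7 and 41.9), which enters the variance of every comparison fitted over all 12 libraries.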

Other observations

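The other genes of these pathways also differed between the parental lines. In MDA-MB-231 parental controls 24 of 45 tested genes were higher (53.3%) and 14 lower (31.1%) than in those of Hs-578T (limma, adjusted p under 0.05). Of all 13737 tested genes 6324 were higher and 4305 lower, 77.4% in either direction. The counts of the 45 include genes, such as GPC4, that reached the filter in a single line and so had to differ. All 10 feedback genes and readouts were higher in MDA-MB-231, with a median log2 difference of 1.35, and DUSP6 (4.03), SPRY4 (3.69) and ETV4 (2.58) led them. All 3 PDGF-processing proteases were higher as well, PLAT by 2.42 and PLAU by 2.31, while PDGFRL (-3.44), FGF13 (-3.53), the syndecan SDC2 (-4.52) and the glypican GPC4 (-4.07), the last without a read in MDA-MB-231 parental libraries, were lower. The line with the lower receptor levels thus had the higher levels of the feedback genes, a statement on 2 lines and not on a relation between these measures. These genes were named after their values were seen.

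The MEK5DD difference also differed between the lines for 8 of the 10 feedback genes, 7 lower and 1 higher in MDA-MB-231, with a median of -0.75 beside 0.05 over all tested genes. For SRC this difference was -2.84, for GPC1 -1.68 and for SDC3 -1.62, and each of these 3 genes fell in MDA-MB-231 MEK5DD cells. Among the 45 genes, 27 passed this contrast, beside 39.6% of all tested genes.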
